A study of Homo sapiens with 6 samples.

Results

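The collagen gene family was followed in LX-2 cells, an immortalised human line derived from hepatic stellate cells, after exposure to BMP9. Its members were taken by name: every probe set that the platform annotation gave to a single gene whose symbol reads COL, digits, A, digits. This gave 43 collagen alpha chain genes and 121 probe sets, of 18132 genes and 49293 probe sets tested. Both groups were kept without serum for 12 h. The BMP9 group (3 arrays) then received recombinant human BMP9 at 50 ng/ml for 24 h, and the control group (3 arrays) received 0 ng/ml for the same time. All samples came from this single line, with a single dose and a single time point, and each was read on 1 Affymetrix array as RMA values on the log2 scale. The labels call the samples biological replicates without saying that they were separate cultures, so the p-values reflect only how far these samples spread, which may be technical.

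Collagens are assembled from alpha chains that wind around each other in trimers, and the genes fall into classes by the structures these trimers build. Fibrillar collagens form the tensile fibrils of scar and connective tissue, and in the fibrotic liver types I and III are the main ones, made largely by activated stellate cells. Type IV collagen forms the sheet of basement membranes, type VI forms beaded filaments around cells, and FACIT collagens sit on the surface of fibrils or link them to other matrix. BMP9, encoded by GDF2, belongs to the TGF-beta superfamily of ligands and acts through the receptors ACVRL1 and BMPR2 and the transcription factors SMAD1, SMAD5 and SMAD9.

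BMP9 lowered COL3A1, which encodes the chain of the type III homotrimer, 2.45-fold, while the genes of its fibril partners, COL1A1, COL1A2, COL5A1 and COL5A2, did not pass the test. COL16A1, a FACIT collagen, was lower by 0.45 on the log2 scale, or 1.36-fold, a fall that turned to a difference of 0.086 when arrays were scaled to their poly-A controls. Each gene was read by its brightest probe set, and a gene was called at a limma adjusted p under 0.05 over all genes. Of the 43 collagen genes, 2 were called lower and 0 higher, with 6 lower and 3 higher at an unadjusted p under 0.05. Of all genes, 5.98% were lower and 6.89% higher at that unadjusted p. After adjustment 0.684% of all genes were called, 0.452% lower and 0.232% higher. These shares of all genes are the reference for the counts by class and list below. The median log2 difference was -0.028 over the collagen genes and 0.014 over all genes, and the median absolute difference was 0.083 and 0.084. Both medians of the family lay close to those of all genes. COL3A1 stood apart from the other members: by p it ranked 5 of 18132 genes, and by size of fall 8. In these whole-culture RNA samples, fewer cells with a transcript and less of it per cell cannot be told apart.

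**Figure D1:**
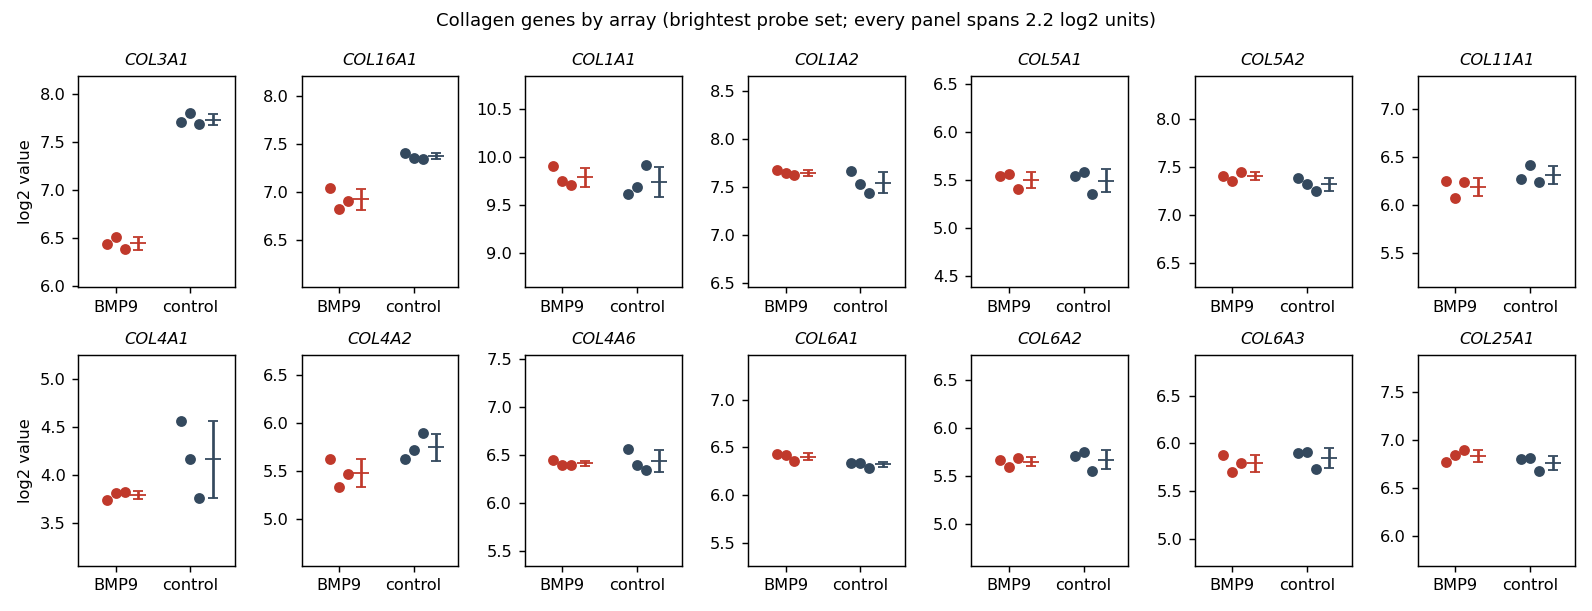
Log2 values of 14 collagen genes on the 3 BMP9 arrays (red, left in each panel) and the 3 control arrays (dark, right), with the mean and SD beside the points; all panels span the same number of log2 units. COL3A1 and COL16A1 are the genes whose BMP9 arrays all lie well below their control arrays.

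Arrays correlated at 0.994 to 0.995 within BMP9, 0.993 to 0.994 within control and 0.991 to 0.993 between groups (Pearson's r across genes). Of the 10 stellate cell and fibroblast markers, VIM was the brightest at a mean of 11.43 and SPARC stood at 8.38 ± 0.07 with BMP9 and 8.34 ± 0.097 in control (SD, n = 3), while ACTA2, the actin of activated stellate cells, was dim at 3.97 over all arrays. The summed level of these markers was 11.58 to 11.67 on BMP9 arrays and 11.82 to 11.96 on control arrays, where most of the sum is VIM, at 11.25 ± 0.054 with BMP9 and 11.62 ± 0.099 in control (SD, n = 3; limma adjusted p = 0.0786). The median difference of the 10 was 0.033, with 6 positive and 4 negative, and 1 was higher and 2 were lower at an unadjusted p under 0.05. Of all genes, 12.9% passed that unadjusted p. In limma 1 of the 10 markers, PDGFRA, was called lower, by 1.03 (limma adjusted p = 0.0114). Of its 4 probe sets, 1 was called when each was tested. HAND2 differed by 0.30 without passing (limma adjusted p = 0.121). The part of these markers in the results below was not tested. Summed levels of hepatocyte, endothelial, macrophage and leukocyte, and cholangiocyte markers overlapped between the groups, and 0 of their 20 genes were called by limma, with 2 higher and 1 lower at an unadjusted p under 0.05. The array's spiked-in controls were lower on BMP9 arrays: scaling to the hybridisation controls moved the median difference of all genes to 0.23, and scaling to the poly-A controls to 0.55. Without scaling the median was 0.014, so the shift that each scaling adds to every gene is slightly smaller than these medians. Differences below are on the deposited scale, and a fall smaller than that shift turns positive under the scaling concerned. The table holds no detection calls. Background control probe sets with 13 G or C bases of 25 averaged 2.22, those with 15 averaged 2.86 and those with 18 averaged 4.67. By its brightest probe set, 3 collagen genes lay under the first of these levels, 6 under the second and 19 under the third, so a lack of change in the dim genes says little. Controls richer in G and C read higher still, 6.16 at 21 bases and 10.0 at 25. The G and C content of the collagen probes was not examined, so these levels set no firm floor.

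Fibrillar collagens comprised 11 genes, of which 1 was called lower and 0 higher, with 2 lower and 0 higher at an unadjusted p under 0.05 in the same limma fit. COL3A1 read 6.44, 6.51 and 6.38 on the BMP9 arrays, against 7.71, 7.80 and 7.69 on the control arrays. The groups lay far apart relative to their spread, with means of 6.44 ± 0.063 and 7.73 ± 0.057 (SD, n = 3). The log2 difference was -1.29 (SE 0.075, 95% interval -1.46 to -1.12, limma adjusted p = 2.35e-05). Under all 15 alternatives COL3A1 stayed called and lower, with differences from -1.32 to -0.76 (limma adjusted p 1.69e-07 to 0.00253).

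COL3A1 had 5 probe sets, and 3 of them were called when every probe set was tested on its own, where 0.41% of all probe sets were called and 0.276% were called lower. The first of the other two that were called read 4.90, 5.07 and 4.95 on the BMP9 arrays, against 6.35, 6.31 and 6.18 on the control arrays. It differed by -1.30 (SE 0.085, with a limma adjusted p of 4.65e-05 for probe sets). The next read 4.13, 4.28 and 4.17 on the BMP9 arrays, against 5.58, 5.49 and 5.01 on the control arrays. It differed by -1.17 (SE 0.13, limma adjusted p = 0.00384), so these readings of the transcript gave falls of nearly the same size. The remaining probe sets stood at 1.96 ± 0.076 with BMP9 and 1.97 ± 0.12 in control, and at 1.71 ± 0.077 with BMP9 and 1.78 ± 0.076 in control (SD, n = 3), below the background controls with 13 G or C bases. Averaging all of them, dim ones included, gave a difference of -0.77, and scaling to the poly-A controls gave -0.76.

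Type I collagen, the most abundant fibrillar collagen of scar tissue, is a trimer of COL1A1 and COL1A2 chains. COL1A1 read 9.90, 9.75 and 9.71 on the BMP9 arrays, against 9.61, 9.68 and 9.91 on the control arrays, and the groups overlapped. Its log2 difference was 0.052 (SE 0.097, 95% interval -0.16 to 0.27, limma adjusted p = 0.866). COL1A2 read 7.68, 7.64 and 7.62 with BMP9, against 7.66, 7.53 and 7.44 in control, and also overlapped. Its log2 difference was 0.10 (SE 0.079, 95% interval -0.076 to 0.28, limma adjusted p = 0.643). Neither interval reaches a change of the size seen in COL3A1. Over the 5 probe sets of COL1A1 the differences ran from -0.11 to 0.052, and over the 6 of COL1A2 from -0.075 to 0.36. The largest of these came from a dim COL1A2 probe set that read 3.06, 3.42 and 3.14 with BMP9, against 2.97, 2.89 and 2.66 in control. Its groups did not overlap, and it was not called when each probe set was tested (limma adjusted p = 0.262).

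A difference taken within each array is unchanged when all log2 values of the array shift alike. Scaling to control probe sets is such a shift, and quantile normalisation is not. The log2 value of COL3A1 minus that of COL1A1 was lower with BMP9 by a difference of -1.34, with SDs of 0.11 on the BMP9 arrays and 0.19 on the control arrays (n = 3 each). For COL3A1 minus COL1A2 the difference was -1.39, and for COL16A1 minus COL1A1 it was -0.50. In each of these 3 comparisons all BMP9 arrays lay below all control arrays. The exact two-sided permutation p was 0.1, also after adjustment over the 3, which is the smallest that 3 against 3 arrays can give. The pairs set genes already called lower against genes whose groups overlapped. This outcome was thus largely fixed by the choice of pairs and adds no separate evidence.

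Type V collagen, which sits in the core of type I fibrils and limits their width, was read by COL5A1, COL5A2 and COL5A3. COL5A2, which lies next to COL3A1 among protein-coding genes, read 7.41, 7.36 and 7.45 on the BMP9 arrays, against 7.39, 7.32 and 7.25 on the control arrays. The groups overlapped at a log2 difference of 0.083 (SE 0.074, 95% interval -0.083 to 0.25, limma adjusted p = 0.688). COL5A1 read 5.54, 5.57 and 5.41 with BMP9, against 5.54, 5.59 and 5.36 in control, a log2 difference of 0.013 (SE 0.087). COL5A3 differed by 0.043. Across probe sets the differences ran from -0.054 to 0.022 in COL5A1 and from -0.16 to 0.083 in COL5A2.

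Type XI collagen is the cartilage relative of type V, and its gene COL11A1 gave readings that differed between probe sets. The brightest read 6.25, 6.08 and 6.24 on the BMP9 arrays, against 6.28, 6.42 and 6.24 on the control arrays, a log2 difference of -0.12 (SE 0.083, limma adjusted p = 0.582). A dim one, at 1.90, 2.06 and 2.07 with BMP9, against 2.39, 2.56 and 2.48 in control, was called lower by 0.47 (SE 0.085, with a limma adjusted p of 0.0496 for probe sets). Its control mean of 2.48 lies between background controls with 13 and 15 G or C bases, and its call was lost whichever array was left out. The call was also lost under a replicate block, quantile normalisation and either scaling to controls. It was kept with median centring and under an intensity trend with a robust prior. Where probe sets with shared probes were removed, this dim one stood for the gene and was called lower at -0.47 (limma adjusted p = 0.0379), which made 3 collagen genes lower. Another read 3.12, 3.32 and 3.32 with BMP9, against 3.50, 3.76 and 3.84 in control, a difference of -0.44 that did not pass (limma adjusted p = 0.131). COL24A1, a minor fibrillar collagen, read 4.21, 4.0 and 4.13 with BMP9, against 4.24, 4.32 and 4.49 in control. It did not overlap between the groups and differed by -0.23 without passing (limma adjusted p = 0.317). COL11A2 differed by -0.096, COL27A1 by -0.047 and COL2A1, the cartilage collagen, by 0.066.

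**Figure D2:**
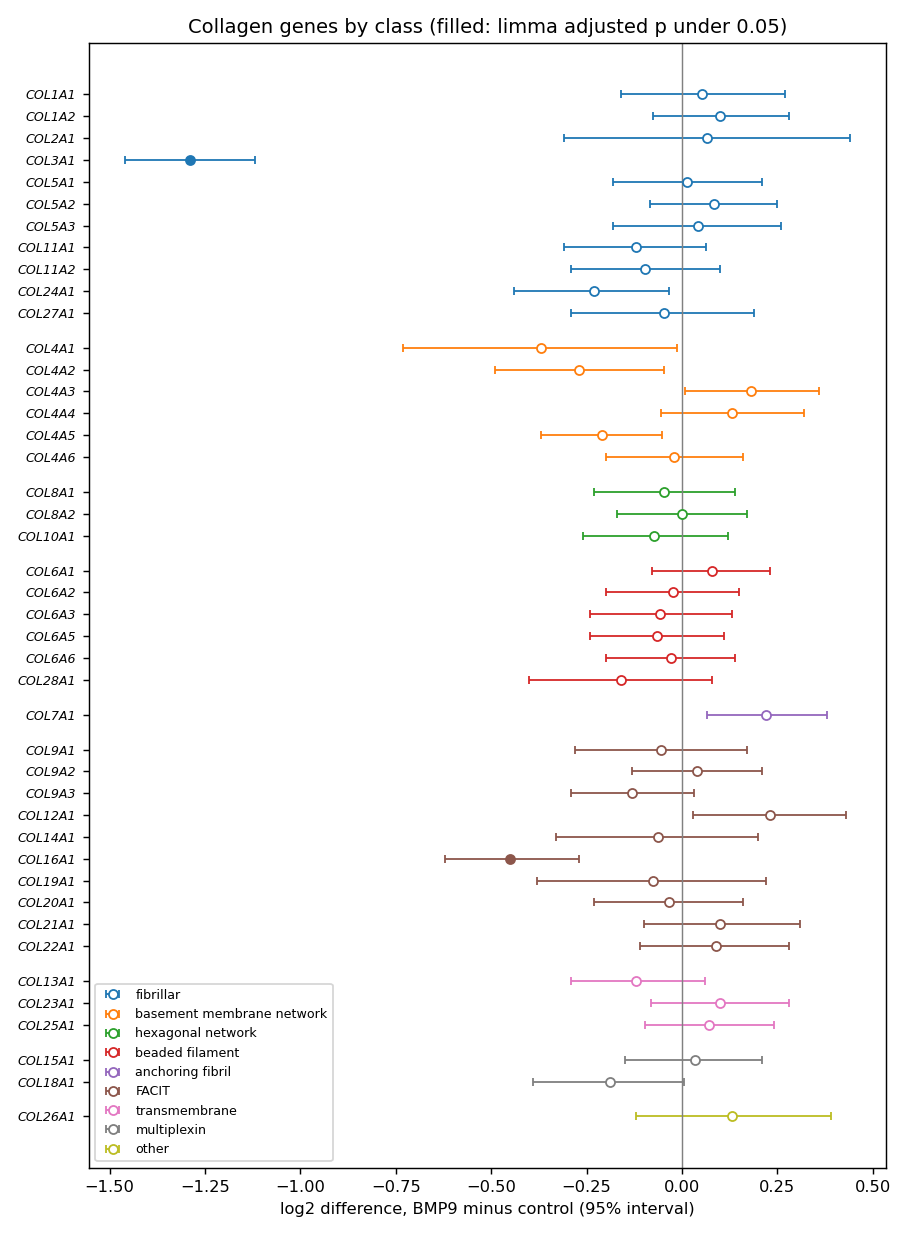
Log2 difference (BMP9 minus control) with its 95% interval for each of the 43 collagen genes, grouped and coloured by class; filled points passed at a limma adjusted p under 0.05. COL3A1 at -1.29 stands away from every other member, COL16A1 at -0.45 is the other filled point, and the remaining 41 lie between -0.37 and 0.23.

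FACIT collagens, which carry interrupted triple helices and attach to fibril surfaces, comprised 10 genes, of which 1 was called lower and 0 higher, with 1 lower and 1 higher at an unadjusted p under 0.05 in the same limma fit. COL16A1, read by a single probe set, stood at 7.04, 6.82 and 6.91 on the BMP9 arrays, against 7.41, 7.36 and 7.35 on the control arrays. The groups did not overlap, with means of 6.93 ± 0.11 and 7.37 ± 0.03 (SD, n = 3). The difference was -0.45 (SE 0.08, 95% interval -0.62 to -0.27, limma adjusted p = 0.0383), against 0.086 with poly-A scaling. The call sat close to the threshold: it passed under 7 of 15 alternatives (limma adjusted p 0.00341 to 0.613), was not made when each probe set was tested (0.0545), and was lost without BMP9 replicate 2 or 3 (limma adjusted p = 0.162 and 0.161) or without control replicate 1, 2 or 3 (0.142, 0.0993 and 0.106).

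The other FACIT genes were not called. COL12A1, which binds type I fibrils, read 5.23, 5.08 and 5.10 with BMP9, against 5.06, 4.89 and 4.78 in control. These groups did not overlap at a log2 difference of 0.23 (limma adjusted p = 0.325), in the direction opposite to COL16A1. COL9A3, at 2.79 ± 0.03 with BMP9 and 2.92 ± 0.062 in control (SD, n = 3), did not overlap either, with a difference of -0.13 (limma adjusted p = 0.490). Its partner chains in type IX collagen, COL9A1 and COL9A2, differed by -0.055 and 0.039, COL14A1 by -0.064, COL19A1 by -0.077, COL20A1 by -0.033, COL21A1 by 0.10 and COL22A1 by 0.088.

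The region upstream of COL16A1 is shown because this gene passed the test. RefSeq promoter windows (build GRCh38.p14) were matched for 31 of the 43 collagen genes, COL3A1 not among them. The second sequence is the stretch between the starts of COL4A1 and COL4A2, which are transcribed away from each other from starts 127 bases apart and whose chains form a joint trimer. Capitals mark the GC box GGGCGG, the SMAD-box form GTCTG, the GC-rich SMAD1/5 motif GGCGCC and the CCAAT box, each searched on both strands; the GC box and GGCGCC overlap in the second sequence.
COL16A1, upstream, chr1:31704018-31704267, minus strand: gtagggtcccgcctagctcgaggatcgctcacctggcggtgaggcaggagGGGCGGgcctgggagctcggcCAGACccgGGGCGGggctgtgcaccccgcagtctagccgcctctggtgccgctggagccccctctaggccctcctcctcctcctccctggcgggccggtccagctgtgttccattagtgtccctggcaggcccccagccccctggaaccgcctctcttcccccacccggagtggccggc
COL4A1 to COL4A2, chr13:110307158-110307283, plus strand: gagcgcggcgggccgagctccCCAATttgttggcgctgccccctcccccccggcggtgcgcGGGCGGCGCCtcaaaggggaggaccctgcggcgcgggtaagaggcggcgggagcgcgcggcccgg
The COL16A1 sequence holds 2 GC boxes, 1 GTCTG and 0 GGCGCC in 250 bases at 73.2% G and C. The COL4A1 to COL4A2 sequence holds 1 CCAAT box, 1 GGCGCC, 1 GC box and 0 GTCTG in 126 bases at 80.2% G and C. The 31 matched collagen genes gave 43 windows, so some genes count more than once, and the windows of COL4A1 and COL4A2 overlap. Of these 43 windows, 250 bases upstream of each start, 55.8% hold GGGCGG, 37.2% hold GTCTG, 30.2% hold GGCGCC and 25.6% hold CCAAT. Over all 35116 RefSeq windows the shares are 42.6%, 38.0%, 16.4% and 32.0% in that order. The TATA box form TATAAA and the palindromic SMAD box GTCTAGAC, also searched on both strands, are in neither printed sequence. They are in 16.3% and 0 of the collagen windows, against 10.7% and 0.182% of all windows. These matches describe the letters only.

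Basement membrane collagens comprised 6 genes, of which 0 were called by limma, with 3 lower and 1 higher at an unadjusted p under 0.05. That is 66.7% of the 6 at the unadjusted p, against 12.9% of all genes, a difference that was not tested. COL4A1 read 3.74, 3.81 and 3.82 on the BMP9 arrays, against 4.56, 4.17 and 3.76 on the control arrays. Control replicate 3 lay within the BMP9 range, and the log2 difference of -0.37 did not pass (SE 0.16, limma adjusted p = 0.369). It was -0.17 without control replicate 1, -0.57 without control replicate 3 and -0.086 with averaged probe sets, with no call in any. COL4A2 read 5.62, 5.33 and 5.47 with BMP9, against 5.62, 5.72 and 5.89 in control. This pair, whose shared start region is printed above, thus had differences of the same sign, -0.37 and -0.27, in their brightest probe sets (limma adjusted p = 0.298 for COL4A2). With averaged probe sets they were -0.086 and -0.097, and with poly-A scaling 0.16 and 0.26. Their other probe sets lay between -0.065 and 0.18 in COL4A1 and between -0.042 and 0.021 in COL4A2.

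COL4A5, which encodes a chain of the kidney and skin basement membranes, read 4.61, 4.60 and 4.57 with BMP9, against 4.80, 4.75 and 4.87 in control. It did not overlap between the groups and differed by -0.21 (limma adjusted p = 0.249). Its head-to-head neighbour COL4A6 read 6.45, 6.40 and 6.40 with BMP9, against 6.57, 6.40 and 6.35 in control, a log2 difference of -0.021 in the brightest of 7 probe sets. The dimmer ones moved both ways without passing: one at 3.02, 2.76 and 2.83 with BMP9, against 3.25, 3.51 and 3.50 in control, differed by -0.55 (limma adjusted p = 0.053). That one was called lower with hybridisation scaling and under an intensity trend with a robust prior. Another at 3.85, 3.84 and 3.95 with BMP9, against 3.74, 3.29 and 3.55 in control, differed by 0.35 (limma adjusted p = 0.258). COL4A3 and COL4A4, the other head-to-head pair, stood near the background controls, at 2.38 ± 0.015 with BMP9 and 2.20 ± 0.11 in control for COL4A3 and at 2.06 ± 0.032 with BMP9 and 1.92 ± 0.14 in control for COL4A4 (SD, n = 3). The groups of COL4A3 did not overlap at a difference of 0.18 (limma adjusted p = 0.367), and those of COL4A4 overlapped.

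Beaded filament collagens comprised 6 genes, with 0 called by limma and 0 past an unadjusted p of 0.05. COL6A1, COL6A2 and COL6A3 encode the usual chains of type VI collagen. COL6A1 read 6.43, 6.42 and 6.36 on the BMP9 arrays, against 6.34, 6.34 and 6.29 on the control arrays. The groups did not overlap, but the log2 difference was 0.079 (95% interval -0.078 to 0.23, limma adjusted p = 0.685). COL6A2 read 5.67, 5.6 and 5.69 with BMP9, against 5.71, 5.75 and 5.56 in control, a difference of -0.023 (95% interval -0.20 to 0.15). COL6A3 read 5.88, 5.7 and 5.8 with BMP9, against 5.9, 5.91 and 5.73 in control, a difference of -0.057 (95% interval -0.24 to 0.13). Both overlapped between the groups. COL6A3 also had dimmer probe sets at -0.20 and -0.26, with BMP9 arrays below control arrays in both and no call (limma adjusted p = 0.389 and 0.345). COL28A1 differed by -0.16, COL6A5 by -0.066 and COL6A6 by -0.028.

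**Figure D3:**
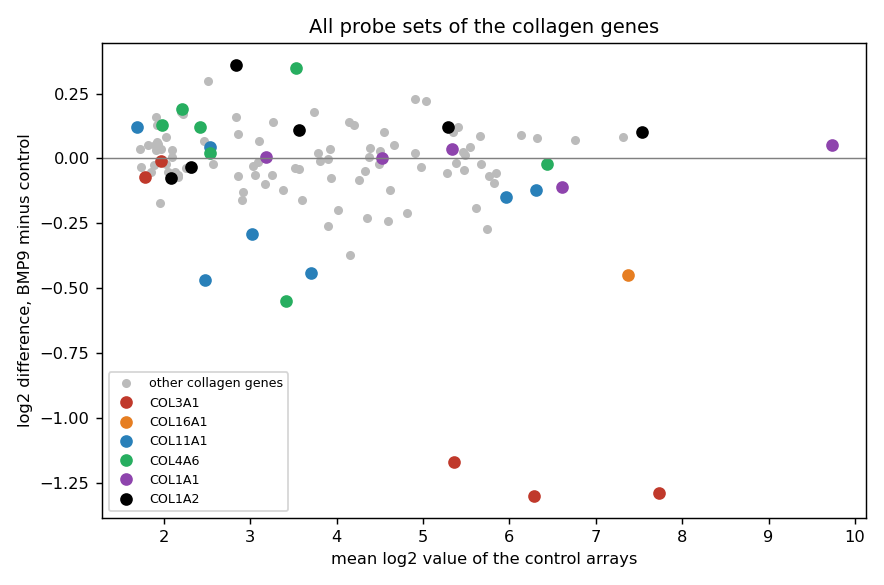
Log2 difference (BMP9 minus control) against the mean log2 value of the control arrays for all 121 collagen probe sets, with 6 genes coloured. The 3 brighter COL3A1 probe sets lie together between -1.30 and -1.17, its 2 dim ones lie near 0, and those of COL1A1 and COL1A2 lie between -0.11 and 0.36.

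The remaining classes held 10 genes and 0 limma calls, with 1 gene, COL7A1, past an unadjusted p of 0.05. COL7A1, which makes the anchoring fibrils beneath epithelia, read 5.31, 5.25 and 5.23 on the BMP9 arrays, against 5.05, 5.07 and 5.01 on the control arrays. These groups lay clear of each other at a log2 difference of 0.22 that did not pass (SE 0.071, limma adjusted p = 0.222). COL13A1, a transmembrane collagen, differed by -0.12, with a highest BMP9 value and a lowest control value that both round to 4.53 and only just do not overlap. COL25A1, another transmembrane chain, found in amyloid plaques, read 6.77, 6.84 and 6.89 with BMP9, against 6.8, 6.81 and 6.68 in control. It overlapped at a difference of 0.071 (limma adjusted p = 0.745). This reading came from a probe set with shared probes (_x_at). The other COL25A1 probe sets were dim, at means of 2.55, 1.77 and 2.40 with BMP9, against 2.57, 1.73 and 2.22 in control. COL23A1 differed by 0.10. COL18A1, whose product yields the anti-angiogenic fragment endostatin, stood at 5.42 ± 0.098 with BMP9 and 5.61 ± 0.12 in control (SD, n = 3), a difference of -0.19 (limma adjusted p = 0.400). COL15A1, its multiplexin relative, differed by 0.033, COL8A1 by -0.046, COL8A2 by -0.0013, COL10A1 by -0.073 and COL26A1 by 0.13. Across the whole family 10 of 43 genes had groups that did not overlap, 23.3%, with 4 higher and 6 lower, and over all genes 18.8% did so, 10.3% higher and 8.49% lower. Over all 121 collagen probe sets 4 were called lower, 3 of COL3A1 and 1 of COL11A1, and 0 higher. At an unadjusted p under 0.05 in limma 14 were lower, the 3 of COL3A1 among them, and 6 higher. Of all 49293 probe sets tested, 2786 were lower and 2815 higher at that unadjusted p. Several probe sets can read 1 gene, so these are not counts of separate genes.

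Genes that make, bind and break down collagen were read in the same fit. Of 34 measured genes of collagen biosynthesis and cross-linking 0 were called by limma, with 2 lower and 1 higher at an unadjusted p under 0.05. PLOD2, a lysyl hydroxylase that prepares stable cross-links, stood at 2.67 ± 0.092 with BMP9 and 3.03 ± 0.076 in control (SD, n = 3), a difference of -0.37 (limma adjusted p = 0.0875). These levels lie near the background controls with 15 G or C bases. Averaged probe sets of PLOD2 gave -0.10 (limma adjusted p = 0.493). P4HB, the beta subunit of prolyl hydroxylase, differed by -0.23, BMP1, which cleaves the procollagen C-propeptide, by -0.26, and FKBP14, a prolyl isomerase, by 0.35 (limma adjusted p 0.225 to 0.404). A further BMP1 probe set, at 5.92 ± 0.093 with BMP9 and 6.53 ± 0.17 in control (SD, n = 3), was called lower by 0.61 when each probe set was tested (limma adjusted p = 0.0277). The gene values of PLOD2, P4HB and BMP1 turned positive with poly-A scaling. Of 10 collagen receptors 0 were called, with 1 higher and 0 lower at an unadjusted p under 0.05. ITGA1 and ITGA2, which pair with ITGB1, differed by 0.19 and 0.15, ITGA10 by 0.081 and the endocytic receptor MRC2 by -0.11 (limma adjusted p 0.337 to 0.686). Mean levels were 2.39 with BMP9 and 2.19 in control for ITGA1, and 3.01 and 2.86 for ITGA2, near the background controls.

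Of 13 genes of collagen turnover and fibril binding, 2 were called lower and 0 higher, with 4 lower and 3 higher at an unadjusted p under 0.05 in limma. Those called were 15.4% of the list, against 0.684% of all genes. At the unadjusted p the shares were 53.8% and 12.9%. The list was chosen with earlier results of these data known, and these shares were not compared by a test. MMP2, a gelatinase that cuts denatured collagen, read 6.58, 6.49 and 6.66 on the BMP9 arrays, against 7.84, 7.77 and 7.83 on the control arrays. Its difference of -1.24 (SE 0.076, limma adjusted p = 2.79e-05) was close in size to that of COL3A1. Another bright MMP2 probe set, at 7.02 ± 0.31 with BMP9 and 7.10 ± 0.11 in control (SD, n = 3), differed by -0.084, so the brightest probe sets of MMP2 disagreed, and 1 of its 4 was called. The dim ones differed by 0.094 and 0.10. With averaged probe sets MMP2 was not called.

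MMP14, a membrane-bound collagenase that activates MMP2, read 6.16, 6.24 and 6.13 with BMP9, against 6.59, 6.67 and 7.0 in control. The groups did not overlap at a difference of -0.58 (limma adjusted p = 0.0431 by gene and 0.0545 by probe set), a call lost whichever array was left out (limma adjusted p 0.0593 to 0.175). Its other probe sets, of similar brightness, differed by -0.37, -0.13 and 0.10 with no call. Averaging all 4 gave -0.24 (limma adjusted p = 0.163) and poly-A scaling -0.048 (0.778), so both ended the call. DCN, a proteoglycan that coats fibrils, read 3.96, 4.27 and 3.47 with BMP9, against 4.43, 5.11 and 4.38 in control, a difference of -0.74 that did not pass (limma adjusted p = 0.194). It was -0.24 with averaged probe sets and -0.021 without those that share probes. CTSK, a collagen-degrading cathepsin, read 4.44, 4.45 and 4.44 with BMP9, against 4.07, 4.31 and 4.02 in control, a difference of 0.31 that did not pass (limma adjusted p = 0.183).

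**Figure D4:**
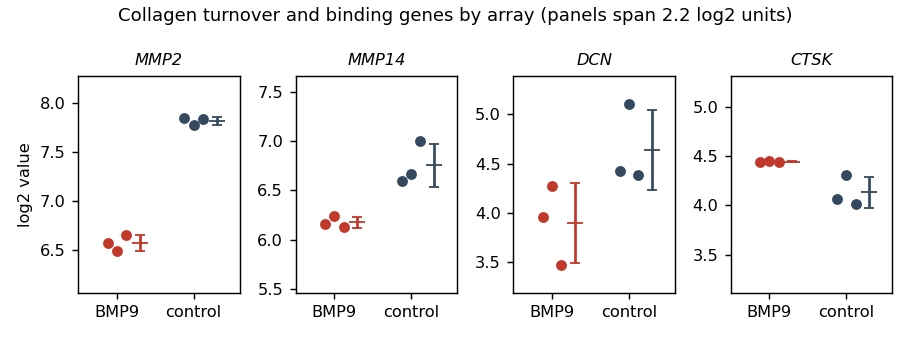
Log2 values of MMP2, MMP14, DCN and CTSK on the 3 BMP9 arrays (red, left) and the 3 control arrays (dark, right), with mean and SD; panels span the same number of log2 units. MMP2 and MMP14 were called lower by their brightest probe sets, at -1.24 and -0.58, and neither was called with averaged probe sets. DCN and CTSK did not pass.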

How the data were processed

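Biotin-labelled cRNA of 6 LX-2 samples was hybridised to Affymetrix arrays, 1 per sample. The deposited log2 values, 1 per probe set, come from RMA (background subtraction, quantile normalisation and summary), which the authors ran per the submitters' processing notes. Its version, settings and log base are not stated there, and log2 was taken from RMA's usual output. RMA removes most of a change shared by all transcripts. The table held 49395 probe sets: 102 array controls, 44988 with 1 gene symbol in the platform annotation, 1832 with several and 2473 with none. No 2 arrays shared more than 0.00405% of their values.

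Among a gene's probe sets with no other gene, the brightest by mean stood for it. Groups were compared in limma 3.58.1 under R 4.3.3 (lmFit and eBayes, no covariate, no filter), with Benjamini-Hochberg adjustment over all genes, or over all probe sets where each was tested. Residual degrees of freedom were 4, to which the prior added 6.13; the median SE was 0.0875. The code was tested on simulated data. The number of arrays limits the precision. Within-array differences between genes used exact permutation tests (scipy 1.17.1).

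Members, lists, tests and the naming rule were chosen with earlier results of these data known. Full values were given for collagen genes called by gene or by probe set, for COL1A1, COL1A2, COL3A1, COL4A1, COL4A2, COL5A1, COL5A2, COL6A1, COL6A2 and COL6A3, for those with a mean of at least 6 in the higher group, for those without overlap and a difference of at least 0.3, and for up to 4 genes per other list by p; values of further members were added to account for all 43. COL17A1 and COLGALT2 were not analysed here. Alternatives were quantile normalisation, median centring, a block on replicate number, scaling to 18 hybridisation or 24 poly-A control probe sets, a minimum mean of 5, no probe sets with shared probes (_s_at, _x_at), averaged probe sets, an intensity trend with a robust prior, and each array left out.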

Additional observations from a re-analysis of the deposited data

How the results depend on the processing

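Scaling to control probe sets changed most counts. With hybridisation scaling 4843 of 18132 genes, 10 of 43 collagen genes and 24 of 121 collagen probe sets were called higher, and 1 collagen gene lower. With poly-A scaling 16893, 37 and 106 of these were higher, and 19 genes and 1 collagen gene lower. Each scaling shifts all genes of an array alike, so these counts are not a result about collagens. The lists of biosynthesis, receptors and turnover then had 6, 4 and 4 genes higher with hybridisation scaling and 31, 10 and 9 with poly-A scaling, which left 1 turnover gene lower. The median difference of the collagen genes became 0.18 and 0.50. A minimum mean of 5, with 6744 genes tested, called 102 genes higher and 165 lower, and the trend with a robust prior 103 and 182; leaving out an array gave 17 to 24 higher and 37 to 54 lower. Under the replicate block 27 genes were higher and 1 collagen gene lower (COL16A1 had a limma adjusted p of 0.0663), and DCN passed (0.0182) while MMP14 did not (0.067). The deviations of same-numbered arrays correlated at 0.00378, 0.0463 and -0.0214, and BMP9 replicate 1 correlated best with control replicate 3 (0.0632). These low values show no variation shared by replicate number, but they cannot tell whether the samples were handled as pairs. Leaving out an array left 1 to 2 collagen genes, 3 collagen probe sets (all of COL3A1) and 1 turnover gene lower. Hybridisation scaling left 4 collagen probe sets lower, 3 of COL3A1 and 1 of COL4A6. The trend with a robust prior left 6, with 3 of COL3A1 and 1 each of COL11A1, COL16A1 and COL4A6. A minimum mean of 5 left 3, of which 2 were of COL3A1 and 1 of COL16A1. Without probe sets with shared probes 2 collagen probe sets, both of COL3A1, were lower, since the called brightest one of COL3A1 was among those removed. The COL11A1 probe set lost its call over all probe sets, but as a gene COL11A1 was called lower (-0.47, limma adjusted p = 0.0379), so that 3 collagen genes were lower. Averaged probe sets left 0 turnover genes lower and made the COL3A1 minus COL1A1 difference -0.77, against -1.34; leaving out an array gave -1.45 to -1.28.

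Direction turned as follows, and the cause was not tested beyond the shift that scaling adds. With hybridisation scaling COL11A1 became 0.09, COL4A6 0.19, COL6A2 0.19, COL6A3 0.15 and MRC2 0.10. With poly-A scaling COL11A1 became 0.41, COL16A1 0.086, COL4A1 0.16, COL4A2 0.26, COL4A6 0.51, COL6A2 0.51, COL6A3 0.48, PLOD2 0.17, P4HB 0.30, BMP1 0.28 and MRC2 0.42. With averaged probe sets COL1A1 became -0.0024, COL4A6 0.034, COL5A1 -0.014 and COL5A2 -0.014. Without probe sets with shared probes COL25A1 became -0.022, COL5A1 -0.038 and P4HB 0.041. Leaving out single arrays gave ranges across 0 for COL1A1 (-0.012 to 0.14), COL4A6 (-0.065 to 0.042), COL5A1 (-0.055 to 0.062) and COL6A2 (-0.081 to 0.016). Of the 29 collagen genes outside the naming rule, 15 changed sign with hybridisation and 17 with poly-A scaling, and at most 5 under any other alternative, with no call there.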

Other observations

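The protein-coding genes beside the called collagen genes were read as a description, chosen after the values of COL3A1 and COL16A1 were seen. Before COL3A1, GULP1, an adaptor for the uptake of apoptotic cells, read 3.93, 3.58 and 3.73 on the BMP9 arrays, against 4.09, 4.41 and 4.35 on the control arrays. The groups did not overlap at a difference of -0.54 that did not pass (SE 0.11, limma adjusted p = 0.0737). TFPI, the next gene out, which encodes a coagulation inhibitor, differed by 0.00085, and on the far side WDR75 differed by -0.11 at levels near background. Next to COL16A1, the adhesion receptor gene ADGRB2 read 5.47, 5.38 and 5.37 with BMP9, against 4.92, 5.03 and 5.10 in control. It differed by 0.39 without passing (SE 0.078, limma adjusted p = 0.0595), opposite in sign to COL16A1. PEF1 on its other side differed by -0.12, and further out HCRTR1 differed by -0.073 and SPOCD1 by 0.10.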
